A study of Gorilla gorilla with 12 samples.

Results

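Matricellular proteins are secreted into the extracellular matrix but serve mainly as signals to cells rather than as scaffold. They bind integrins and other surface receptors, growth factors and structural matrix proteins, and fibroblasts make many of them during wound repair. The group described here holds 9 genes, namely the thrombospondins THBS1 and THBS2, the tenascin TNC, SPARC, the CCN family members CCN1, CCN2 and CCN5, and the fasciclin-domain proteins POSTN and TGFBI. The 9 genes were picked from 8229 gene symbols on the array with results of the same arrays known, and all probe sets that the annotation gives to 1 of these symbols alone were taken, 13 of 12625. Their levels on the arrays are therefore given as a description.

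RNA of cultured gorilla fibroblasts was hybridised to 12 expression arrays, 1 array for each culture. A second culture of the male line KB_7621, from a donor of 26 years, had been harvested at 50% confluence, that is, with cells on part of the dish. The other 11 arrays held RNA of 11 lines from normal donors, all harvested under standard conditions, and the sources used here do not state their cell density. There were 5 male lines, KB_7500, KB_7621, KB_7801, KB_8592 and KB_9047, from donors of 19, 26, 24, 18 and 3 years. There were 6 female lines, KB_5047, KB_6268, KB_6278, KB_8021, KB_8594 and KB_8840, from donors of 19, 19, 35, 26, 30 and 2 years. No treatment or genetic change of the lines is labelled, and the sources used here state neither body site nor passage number. Each line was taken as 1 animal, which the labels do not state outright, and apart from KB_7621 each was measured once. Culture effects and differences between animals therefore cannot be told apart. Neither can fewer cells making a transcript and less of it in each cell.

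The array was designed on human sequence, so a base difference under a probe can lower an intensity, and no gene's level is set against another's. No deposited intensity was under 100, and this floor held 40.1% to 49.2% of the probe sets on each array. The true signal of such a probe set may be lower still. The array of the 50% confluence culture had the most probe sets at the floor (49.2%), and that of the standard culture of the same line the fewest (40.1%). All 15 fibroblast markers on the array were over 200 on all 12 arrays. Their summed deposited intensity was 108661 at 50% confluence and 117015 to 173248 in the standard cultures. The keratin genes KRT5 and KRT14, the leukocyte gene PTPRC, the endothelial gene VWF and the adipocyte genes ADIPOQ and FABP4 were at the floor on all 12. Some markers listed for other cell types were over 200 on all 12 arrays, namely KRT10 and ITGA6 (keratinocyte), ENG (endothelial), CD68 (macrophage), TNNT1 (skeletal muscle) and COL2A1 (chondrocyte). Others passed 200 on some arrays only, with up to 1673 for CD14 (macrophage), 1787 for ACAN (chondrocyte) and 449 for MITF (melanocyte) in the standard cultures. Over 200 on any array were 4 of 5 melanocyte, 3 of 7 macrophage, 3 of 5 chondrocyte, 3 of 8 skeletal muscle and 2 of 6 lymphocyte markers. The line labelled female KB_6278 goes against its label. Its intensity for the Y-linked gene RPS4Y1 was 2595, against 2662 to 4363 in the male lines and 100 to 115 in the other female lines. It was kept in its labelled group, and results that rest on it are also given without it.

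Differences between lines ran from very wide to very narrow within the group. CCN5 differed most, at least 24.1-fold between its highest and its lowest line, and CCN1 least, 1.54-fold. The SD of the log2 intensity over the 11 lines was 1.58 for CCN5, higher than in 99.8% of the 7535 probe sets bright enough to be tested, and 0.198 for CCN1, higher than in only 2.95% of them. Of the others, THBS2 (1.02), TNC (0.90), THBS1 (0.80) and TGFBI (0.67) had large SDs, CCN2 (0.56) and POSTN (0.55) intermediate ones, and SPARC a small one (0.28). These SDs refer to the brightest probe set of each gene after quantile normalization, and without KB_6278 they ran from 0.208 for CCN1 to 1.59 for CCN5.

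**Figure D1:**
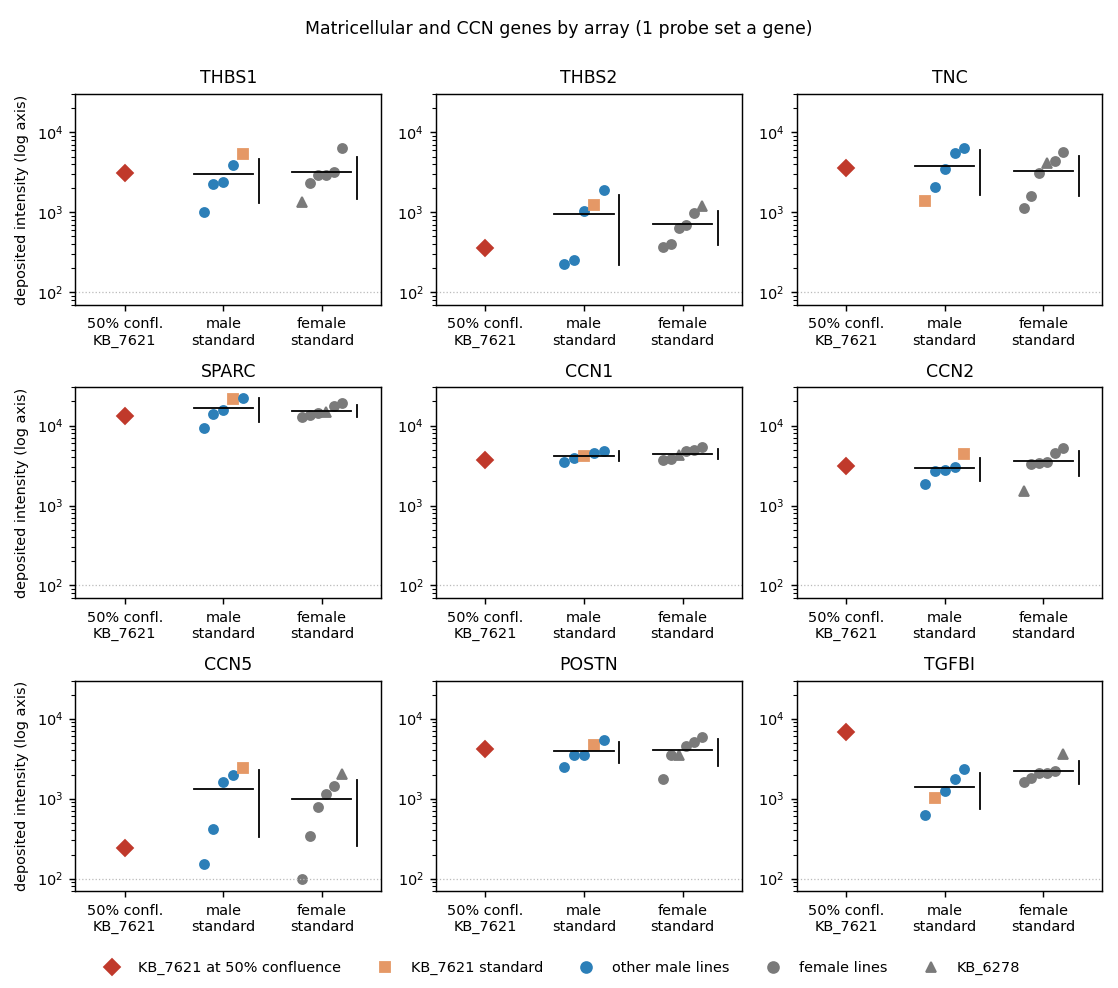
Deposited intensity of the brightest probe set of each of the 9 genes, on a log axis, for the 50% confluence culture of KB_7621, the 5 male lines and the 6 female lines. Horizontal lines are group means and vertical bars SDs, the dotted line is the floor of 100, and the triangle is KB_6278. CCN5 runs from the floor to 2412 among the standard arrays while CCN1 stays between 3458 and 5333, and TGFBI at 50% confluence, at 6800, is above all 11 standard arrays.

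Thrombospondins are large glycoproteins that bind CD36, CD47, LRP1 and integrins. THBS1, which restrains angiogenesis and can activate latent TGF-beta, had intensities of 2411, 5402, 1023, 3880 and 2234 in the male lines KB_7500, KB_7621, KB_7801, KB_8592 and KB_9047 on its brightest probe set, 115_at. In the 6 female lines the lowest was 1338, the median 2922 and the highest 6454. The male mean of 2990 ± 1687 (SD, n = 5) lay within the spread of the female mean of 3185 ± 1732 (SD, n = 6), and the groups overlapped over most of their range. A second THBS1 probe set, 867_s_at, ran from 489 in KB_8021 to 2310 in KB_7621 and ordered the lines similarly (Pearson r = 0.79, Spearman rho = 0.76 over 11 lines). The third, 866_at, was dim, with 109 to 383, and followed the first less closely (r = 0.49, rho = 0.66), with r = 0.32 without the 2 lines farthest from the median. THBS1 was lower on arrays with more probe sets at the floor (r = -0.80, rho = -0.80 over 11 lines, r = -0.56 without the 2 farthest), and the part of this array measure in its spread was not tested.

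THBS2, which regulates collagen fibril assembly, had 254, 1255, 1040, 1932 and 228 in the male lines KB_7500, KB_7621, KB_7801, KB_8592 and KB_9047 on probe set 659_g_at. The female lines had a lowest value of 367, a median of 669 and a highest of 1196, so the lowest and the highest of all 11 lines were both male. The dimmer probe set 658_at, with 111 to 598, gave nearly the same pattern (r = 0.87, rho = 0.88 over 11 lines). THBS1 and THBS2 themselves did not vary together (r = 0.14, rho = 0.30 over 11 lines).

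TNC, a large hexameric glycoprotein made at sites of injury and tissue remodelling, had 2107, 1382, 6425, 5524 and 3518 in the male lines KB_7500, KB_7621, KB_7801, KB_8592 and KB_9047 on probe set 32818_at. The female lines ran from 1130 in KB_5047 through a median of 3639 to 5633, and the 2 groups overlapped nearly completely. The line with the most TNC, KB_7801, was also the line with the least SPARC and the least THBS1 on 115_at. The other TNC probe set, 695_at, was at the floor on all 12 arrays and gave no information. It was the 1 probe set of the 13 that did not pass the filter on dim probe sets.

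SPARC, a calcium-binding protein that chaperones collagen and loosens cell adhesion, had 22318, 21418, 9393, 15607 and 14024 in the male lines KB_7500, KB_7621, KB_7801, KB_8592 and KB_9047. The female lines lay between 12911 and 19215 with a median of 14532. The 11 lines spanned 2.38-fold, and the male lines reached both further up and further down than the female lines. SPARC was also lower on arrays with more probe sets at the floor (r = -0.67), but without the 2 farthest arrays this was r = -0.24.

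CCN proteins are modular, cysteine-rich secreted proteins. CCN1, induced early by growth factors and a well-known target of the transcriptional co-activator YAP, had 3887, 4127, 4566, 3458 and 4872 in the male lines KB_7500, KB_7621, KB_7801, KB_8592 and KB_9047. The female lines had a lowest value of 3659, a median of 4572 and a highest of 5333. The mean was 4182 ± 556 in male lines (SD, n = 5) and 4466 ± 664 in female lines (SD, n = 6), so CCN1 was at nearly the same level in every line.

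CCN2, known as connective tissue growth factor and induced by TGF-beta and YAP, had 1883, 4400, 2732, 2776 and 3037 in the male lines KB_7500, KB_7621, KB_7801, KB_8592 and KB_9047. The female lines had 1528 in KB_6278 as the lowest, a median of 3463 and 5241 as the highest. KB_6278 stood well below the other 5 female lines, which began at 3337, and without it the SD of CCN2 over the lines was 0.46 in place of 0.56.

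CCN5 lacks the C-terminal cystine-knot module of the other family members and is known for slowing the growth of smooth muscle cells. It had 154, 2412, 1979, 1634 and 413 in the male lines KB_7500, KB_7621, KB_7801, KB_8592 and KB_9047. The female lines KB_5047, KB_6268, KB_6278, KB_8021, KB_8594 and KB_8840 had 780, 1450, 2032, 1157, 100 and 344, where KB_8594 was at the floor. Low and high lines occurred in both sexes. Both of the youngest donors, of 2 and 3 years, had low values (344 and 413), but the 2 lowest, KB_8594 and KB_7500, came from adults.

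POSTN and TGFBI are secreted proteins built on fasciclin domains that bind integrins and collagen. POSTN, periostin, a product of activated fibroblasts, had 2464, 4728, 3513, 3542 and 5372 in the male lines KB_7500, KB_7621, KB_7801, KB_8592 and KB_9047. The female lines had a lowest value of 1753 in KB_6268, a median of 4034 and a highest of 5964 in KB_8594, so the groups overlapped nearly completely.

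TGFBI, named for its induction by TGF-beta, had 2333, 1016, 1260, 1763 and 630 in the male lines KB_7500, KB_7621, KB_7801, KB_8592 and KB_9047. The female lines had a lowest value of 1625, a median of 2091 and a highest of 3634, the last in KB_6278. Of the 5 male lines, 3 were below every female line, and KB_7500 and KB_8592 lay among them. The level of TGFBI went with the ratio of 3' to 5' signal of ACTB, a measure of RNA intactness (r = 0.78, rho = 0.66 over 11 lines, r = 0.35 without the 2 farthest), which was 0.672 in KB_9047, where TGFBI was lowest, and 1.19 in KB_6278, where it was highest. The corresponding ratio of GAPDH ran the other way (r = -0.52). The part of RNA intactness in the spread of TGFBI was not tested.

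Whether the members differed between the sexes was tested with limma over the 11 standard arrays, with p-values adjusted by Benjamini-Hochberg over all 7535 tested probe sets. No member passed. Over all tested probe sets limma called 0 (0%) at an adjusted p under 0.05, and 396 (5.26%) had an unadjusted p under 0.05. Even the Y-linked RPS4Y1 was not called with KB_6278 kept as female, but it was without that line. The 0 is thus no sign that sex differences are absent. The male minus female differences of the 12 member probe sets ran from -0.79 to 0.39 on the log2 scale, 5 positive and 7 negative, with adjusted p from 0.890 to 0.996. TGFBI had the largest difference, with a mean of 1400 ± 664 in male lines (SD, n = 5) and 2247 ± 714 in female lines (SD, n = 6). Its log2 difference was -0.79 (SE 0.30) at limma's unadjusted p = 0.0192 and adjusted p = 0.890, and -0.65 (SE 0.30, adjusted p = 0.942) without KB_6278. It was -0.26 with the 50% confluence array standing in for the standard array of KB_7621, and without 1 line at a time it ran from -0.99 without KB_7500 to -0.53 without KB_9047. CCN2 was -0.24 (SE 0.31, limma adjusted p = 0.931) with KB_6278 and -0.48 (SE 0.25, adjusted p = 0.942) without it. CCN1, at -0.085 (SE 0.18, limma adjusted p = 0.968), and SPARC, at -0.093 (SE 0.20, adjusted p = 0.968), had the smallest errors in the group.

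Donor age, from 2 to 35 years in the labels, was fitted as a slope per 10 years with sex as a covariate. limma called 0 of 7535 probe sets (0%), and 410 (5.44%) had an unadjusted p under 0.05. Of the 12 member probe sets 0 had an unadjusted p under 0.05, and adjusted p ran from 0.932 to 0.999. Over all 11 lines CCN5 had the steepest slope, 0.52 log2 units per 10 years (SE 0.41, limma adjusted p = 0.937), which was 0.33 (SE 0.47, adjusted p = 0.993) without KB_6278, the oldest donor by label. It was 0.86 without KB_8594 and 0.27 in adults alone, where THBS1 on 115_at (-0.68) and THBS2 on 658_at (0.68) had steeper slopes. TGFBI had 0.24 (SE 0.15, limma adjusted p = 0.932), and 0.16 (SE 0.17, adjusted p = 0.993) without KB_6278. Its slope was 0.06 without KB_9047 and 0.45 without KB_8840, the lines of the 2 youngest donors. CCN2 had -0.18 (SE 0.16, limma adjusted p = 0.937), and 0.005 (SE 0.15) without KB_6278. For CCN1 the slope was -0.040 (SE 0.095), the least uncertain of the group. The slope in males minus that in females was called for 0 probe sets (0%, with 282 or 3.74% at an unadjusted p under 0.05), and THBS2 on 659_g_at was the 1 member probe set with an unadjusted p under 0.05 (1.14, SE 0.52, limma adjusted p = 0.999).

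**Figure D2:**
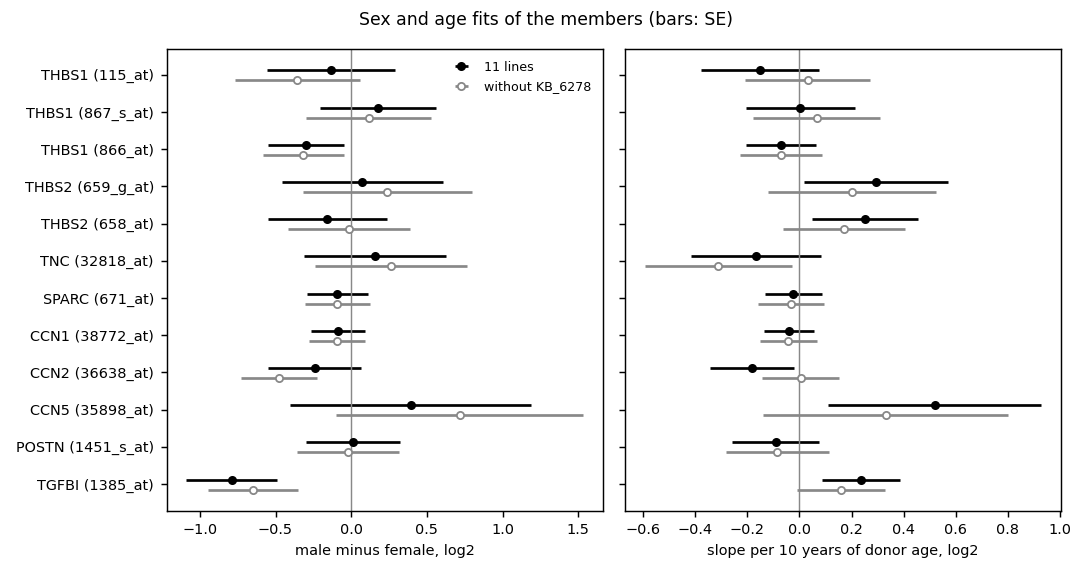
Male minus female differences (left) and slopes per 10 years of donor age (right) in log2 units for the 12 tested member probe sets, with bars of 1 SE, over 11 lines (filled) and without KB_6278 (open). The largest sex difference is that of TGFBI at -0.79 and the steepest slope that of CCN5 at 0.52, and neither passes the adjusted threshold.

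The culture of KB_7621 at 50% confluence was set against the standard culture of the same line, 1 array each, so there is no replicate check and no p-value. TGFBI and TNC were higher at 50% confluence, CCN5 and THBS2 were lower, and THBS1 was lower on all 3 of its probe sets. SPARC, CCN1, CCN2 and POSTN differed by less than 1.5-fold after quantile normalization. Differences are in log2 units after quantile normalization unless stated. Scaling matters for this pair. The median difference over all tested probe sets was 0 after quantile normalization, -0.06 in the values as deposited and 0.44 with median scaling. Of the 12 tested member probe sets, 2 were 2-fold or more higher and 5 were 2-fold or more lower, where 6.97% of all tested probe sets (525) were 2-fold or more higher and 7.25% (546) lower. With median scaling the counts over all tested probe sets were 1299 higher and 231 lower. The members were chosen with this comparison known, so nothing is read from these counts.

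TGFBI had 6800 at 50% confluence and 1016 in the standard culture, a log2 difference of 2.67 or 6.36-fold. The value at 50% confluence was above all 11 standard arrays, 1.87 times the highest of them, the 3634 of KB_6278. The standard culture of KB_7621 was near the low end of the 11 lines, where only KB_9047, at 630, was lower. Among all tested probe sets, 0.0796% had a difference as large or larger in this direction, 6.6% stood above all 11 standard arrays, and 1.57% did so with a difference of 2-fold or more. The ACTB ratio of 3' to 5' signal, which went with TGFBI across lines, was 0.857 at 50% confluence and 0.865 in the standard culture. The GAPDH ratio was 0.990 at 50% confluence and 1.30 in the standard culture. The part of RNA intactness in this difference was not tested. TNC had 3591 at 50% confluence and 1382 in the standard culture, a difference of 1.28 or 2.43-fold, and 1.87 with median scaling. The standard culture of KB_7621 had the second lowest TNC of the 11 lines, and at 50% confluence TNC stood in the middle of them.

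CCN5 had 243 at 50% confluence and 2412 in the standard culture, a difference of -3.19 or 9.12-fold. The standard culture of KB_7621 had the highest CCN5 of all 11 lines, while at 50% confluence it lay below 9 of them and above KB_8594 and KB_7500. Among all tested probe sets, 0.0664% had a difference as large or larger in this direction. Like that of TGFBI, this share is a description, since the members were chosen with this comparison known. Under the other scalings the difference was -3.31 as deposited and -2.82 with median scaling.

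THBS2 had 358 at 50% confluence and 1255 in the standard culture on 659_g_at (-1.80), and on 658_at it had 171 at 50% confluence and 442 in the standard culture (-1.14, or -0.87 with median scaling). THBS1 had 490 at 50% confluence and 2310 in the standard culture on 867_s_at (-2.22). On 115_at it had 3095 at 50% confluence and 5402 in the standard culture (-0.88). On 866_at it had 121 at 50% confluence and 318 in the standard culture (-1.06). The standard culture of KB_7621 was the highest of the 11 lines on 867_s_at. Only KB_5047 was above it on 115_at and 866_at, and only KB_8592 on 659_g_at. On 658_at KB_6278, KB_7801 and KB_8592 were above it. The probe sets of THBS1 thus gave one direction but sizes from 1.84-fold to 4.65-fold, and with median scaling 115_at was only -0.31. Across the 11 lines THBS1 was lower on arrays with more probe sets at the floor (r = -0.80, and -0.56 without the 2 farthest). The share at the floor was 49.2% at 50% confluence and 40.1% in the standard culture. The part of this array measure in the difference of THBS1 was not tested. With median scaling, 3 member probe sets stayed 2-fold or more lower, those of CCN5, THBS2 (659_g_at) and THBS1 (867_s_at).

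CCN2 had 3105 at 50% confluence and 4400 in the standard culture (-0.57, or -0.008 with median scaling). CCN1 had 3724 at 50% confluence and 4127 in the standard culture (-0.24, or 0.35 with median scaling, the other sign). POSTN had 4219 at 50% confluence and 4728 in the standard culture (-0.26, or 0.33 with median scaling, again the other sign). SPARC had 13154 at 50% confluence and 21418 in the standard culture, which was 0.050 after quantile normalization, -0.70 as deposited and -0.21 with median scaling. No direction can be given for SPARC, CCN1 and POSTN, since it turns with the scaling, and that of CCN2 all but vanishes.

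**Figure D3:**
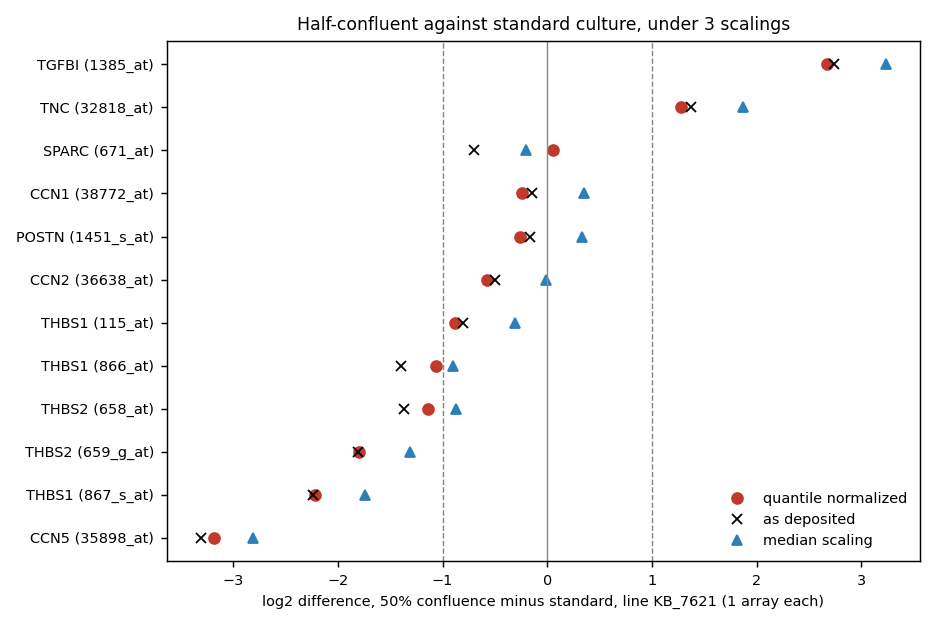
Log2 difference between the 50% confluence and the standard culture of KB_7621 for the 12 tested member probe sets, ordered by size, after quantile normalization (circles), as deposited (crosses) and with median scaling (triangles), with dashed lines at 2-fold. Under all 3 scalings TGFBI and TNC stay 2-fold or more higher, and CCN5, THBS1 (867_s_at) and THBS2 (659_g_at) 2-fold or more lower. SPARC, CCN1 and POSTN change sign.

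Other genes of the same pathways were read from lists of related genes in the same pair, without the members. Over all 5482 genes tested, 395 (7.21%) were 2-fold or more higher at 50% confluence and 362 (6.6%) lower, with a median of 0. Under median scaling 1013 were higher and 149 lower (median 0.47), and as deposited 292 and 563. Of 16 further matricellular genes, 3 were 2-fold or more higher and 5 lower, with a median of -0.44. With median scaling 4 were higher and 4 lower (median -0.02), and as deposited 1 and 5. IGFBP7, a secreted protein that binds insulin-like growth factors, had 1074 at 50% confluence and 4362 in the standard culture (-2.12). The integrin ligand gene MFGE8 had 5168 at 50% confluence and 21630 in the standard culture (-1.80). The elastic fibre gene FBLN5 had 217 at 50% confluence and 802 in the standard culture (-1.79), the lower value being under all 11 standard arrays. For both MFGE8 and FBLN5 the standard culture of KB_7621 was the highest of the 11 lines. MFGE8 at 50% confluence lay within the range of those lines, which began at 1249. On the higher side were SPP1, osteopontin, with 215 at 50% confluence and the floor of 100 in the standard culture, at least 2.15-fold (114 and the floor on a second probe set), and THBS4, with 186 at 50% confluence and the floor in the standard culture, at least 1.86-fold. FBLN1 was 1.22 on one probe set and -0.36 on another, so its direction is uncertain.

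Of 18 receptor genes for these proteins, 1 was 2-fold or more higher and 3 lower, with a median of -0.09. This balance turned with the scaling, since 3 were higher and 0 lower with median scaling (median 0.25), and 1 and 4 as deposited. The integrin subunit gene ITGA6 had 587 at 50% confluence and 248 in the standard culture (1.38), and 0.40 on another probe set. The calreticulin gene CALR, whose product binds THBS1 together with LRP1 at the cell surface, had 1803 at 50% confluence and 4513 in the standard culture (-1.40, and -2.45 on a second probe set). ITGA3 had 471 at 50% confluence and 1090 in the standard culture (-1.25, and -0.78 on a second probe set). ITGB1 and ITGB5, which encode the beta subunits of many receptors for these proteins, had 5423 and 6177 at 50% confluence. In the standard culture they had 5180 and 5987, log2 differences of -0.04 and 0, or 0.56 and 0.54 with median scaling.

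Of 26 other targets of TGF-beta, which induces TGFBI and CCN2, 4 were 2-fold or more higher and 3 lower, with a median of -0.09. This balance also turned with the scaling, with 5 higher and 0 lower under median scaling (median 0.22), and 4 and 7 as deposited. ID1, an inhibitor of basic helix-loop-helix factors that BMPs and TGF-beta regulate, had 12362 at 50% confluence and 2897 in the standard culture (2.38, and 1.73 on a second probe set). The collagen gene COL3A1 had 5409 at 50% confluence and 1906 in the standard culture (1.44). LOX, which encodes a collagen crosslinking enzyme, had 9019 at 50% confluence and 4186 in the standard culture (1.09). The elastin gene ELN had 315 at 50% confluence and 767 in the standard culture (-1.21). Among 13 targets of YAP other than CCN1 and CCN2, 2 were 2-fold or more higher and 2 lower, with a median of -0.32. With median scaling 3 were higher and 1 lower (median -0.01), and as deposited 2 and 2. IGFBP3 had 12519 at 50% confluence and 6410 in the standard culture (1.30, and 0.79 on a second probe set), and ARHGEF17 had 280 at 50% confluence and the floor in the standard culture, at least 2.8-fold. DLC1 had 188 at 50% confluence and 456 in the standard culture (-1.07), while BIRC5 was -1.67 on one probe set and had 269 at 50% confluence and 116 in the standard culture on another, so its direction is uncertain.

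Of 19 targets of SRF, the actin-controlled factor that also acts on CCN1 and CCN2, 2 were 2-fold or more higher and 2 lower, with a median of -0.009. With median scaling 3 were higher and 0 lower (median 0.43), and as deposited 2 and 4. FOSB had 391 at 50% confluence and the floor in the standard culture, at least 3.91-fold higher, and the myosin light chain gene MYL9 had 5780 at 50% confluence and 13747 in the standard culture (-1.10). The standard culture of KB_7621 was the lowest of the 11 lines for FOSB and the highest for MYL9. At 50% confluence both genes lay within the range of the 11 lines. Of 23 genes of structural matrix and its processing, 2 were 2-fold or more higher and 3 lower, with a median of -0.09. The balance turned with the scaling, with 4 higher and 2 lower under median scaling (median 0.22), and 2 and 6 as deposited. The gene of the membrane-bound protease MMP14 had 1350 at 50% confluence and 4927 in the standard culture (-1.99). That of its inhibitor TIMP2 had 2887 at 50% confluence and 7479 in the standard culture (-1.45). For TIMP2 the standard culture of KB_7621 was again the highest of the 11 lines, whose lowest value was 1842. All 21 proliferation genes were higher at 50% confluence after quantile normalization, although MCM3 and MCM4 were slightly lower as deposited. Of the 21, 12 were 2-fold or more higher, with a median of 1.16. BUB1B, a mitotic checkpoint kinase gene, had 646 at 50% confluence and the floor in the standard culture, at least 6.46-fold. Summed deposited intensities of the cell type markers were mostly lower at 50% confluence. For fibroblasts the sum was 108661 at 50% confluence and 173248 in the standard culture. The sums of lymphocytes (660 and 933) and skeletal muscle (2523 and 3367), in the same order, were lower as well. Those of macrophages (1112 and 1686) and chondrocytes (1329 and 2405) were lower within the ranges of the 11 standard arrays, 1056 to 2972 and 748 to 3360. The melanocyte sum was 543 at 50% confluence and 861 in the standard culture, below the standard range of 592 to 1390. The keratinocyte sum was higher, with 3753 at 50% confluence and 2679 in the standard culture, within the standard range of 2521 to 4295. The endothelial sum was 3270 at 50% confluence and 3235 in the standard culture. These sums were not scaled between the arrays. For the 15 fibroblast markers the median log2 difference was -0.39 as deposited, -0.008 after quantile normalization and 0.11 with median scaling. No fall of these markers as a set is thus read from their lower sum. The part of cell cycle state or of other cell types in the differences of the members was not tested. For sex and for age, limma called 0 genes of any of these lists.

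Across the 11 standard lines the members did not move as one group. Correlations here are a description over the same 11 arrays, each of 1 line, and share array signal and RNA quality. Of the 36 pairs of members, 4 had a Pearson r of 0.5 or more and 1 of -0.5 or less, with a median of -0.04. The closest pair was THBS2 and CCN5 (r = 0.65, rho = 0.71, and r = 0.65 without the 2 lines farthest from the median). Next was CCN1 and POSTN (r = 0.62, rho = 0.54, r = 0.46 without the 2 farthest). THBS1 went with CCN2 (r = 0.55, rho = 0.65, r = 0.68 without the 2 farthest, but r = 0.40 without KB_6278). THBS1 and SPARC (r = 0.57, rho = 0.36) and THBS1 and TNC (r = -0.57, rho = -0.41) rested on 2 lines, at r = 0.02 and r = -0.23 without them. CCN1 and CCN2, both YAP targets, had r = 0.48 and rho = 0.43, with r = 0.06 without the 2 farthest lines but r = 0.62 without KB_6278, so the value depends on which lines are kept.

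**Figure D4:**
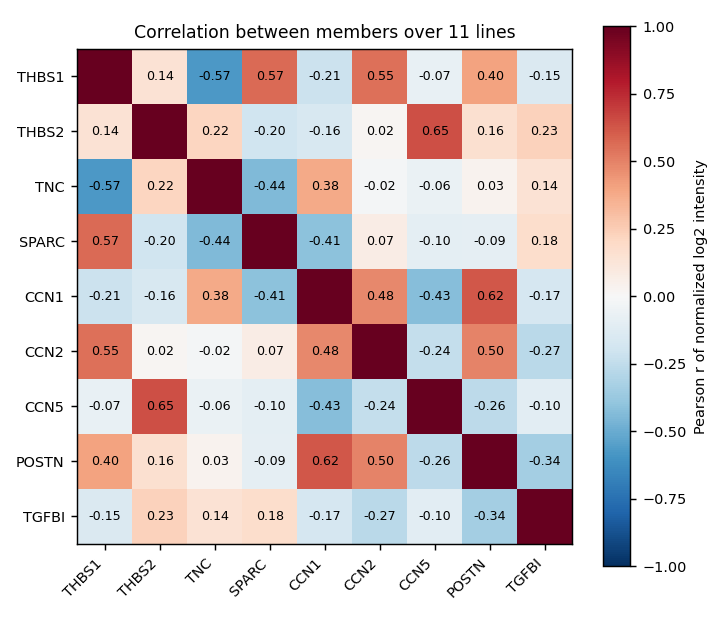
Pearson r between the 9 genes over the 11 standard lines, from the brightest probe set of each gene on the normalized log2 scale. Positive values reach 0.65 for THBS2 and CCN5, and the lowest is -0.57 for THBS1 and TNC.

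Single lines combined high and low members differently, on the brightest probe set of each gene. Other probe sets of THBS1 and THBS2 were lowest in other lines, KB_8021 (867_s_at) and KB_7500 (866_at and 658_at). KB_8594, from the donor of 30 years, had the most CCN1, CCN2 and POSTN of all 11 lines and the least CCN5. KB_7801 had the most TNC and the least THBS1 and SPARC. KB_9047 had the least THBS2 and TGFBI. KB_6278 had the most TGFBI and the least CCN2. KB_8021 and KB_8840 were neither highest nor lowest for any of the 9 genes.

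The genes most like each member over the 11 lines were read from up to 6692 other probe sets with a single gene symbol. CCN5 had the closest match of the group, the cathepsin K gene CTSK, which encodes a collagen-degrading protease. CTSK probe sets 128_at (r = 0.94, rho = 0.86) and 129_g_at (r = 0.93, rho = 0.91) were the first and the third, with r = 0.90 and r = 0.85 without the 2 lines farthest from the median of CCN5. The remaining CTSK probe set, 38466_at, read after the others had been seen, had r = 0.89 and rho = 0.85. Between them was CHPF, a chondroitin polymerising factor (r = 0.93, rho = 0.83).

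CTSK on 128_at had 694, 5242, 8861, 10876 and 1188 in the male lines KB_7500, KB_7621, KB_7801, KB_8592 and KB_9047. The female lines KB_5047, KB_6268, KB_6278, KB_8021, KB_8594 and KB_8840 had 2910, 5616, 10255, 3840, 812 and 1813. The 4 lines with the least CCN5 were also the 4 with the least CTSK on this probe set. The pair of KB_7621 shares its standard array with these correlations, so it is no separate check of them. In this pair CTSK had 1418 at 50% confluence and 5242 in the standard culture (-1.98 on 128_at, with -2.70 and -1.81 on the other probe sets), beside the -3.19 of CCN5. CHPF had 1427 at 50% confluence and 2051 in the standard culture (-0.58).

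**Figure D5:**
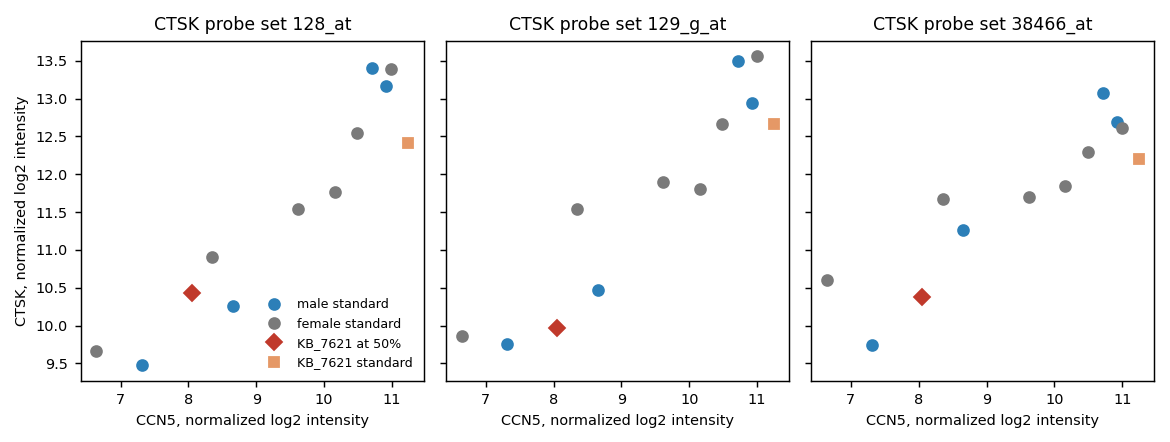
CTSK against CCN5 on the normalized log2 scale, 1 panel for each of the 3 CTSK probe sets, with male lines in blue, female lines in grey, and the 2 cultures of KB_7621 marked by a diamond (50% confluence) and a square (standard). Across the 11 standard lines r is 0.94, 0.93 and 0.89, and the 50% confluence culture lies low on both axes.

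THBS2 was most like SOX4, a transcription factor gene (r = 0.92, rho = 0.83), EPAS1, which encodes hypoxia-inducible factor 2-alpha (r = 0.90, rho = 0.87), and the creatine transporter gene SLC6A8 (r = 0.89, rho = 0.90). All 3 were lower at 50% confluence beside THBS2, at -1.08, -2.42 and -1.34. They were picked over arrays that include the standard culture of KB_7621, so the pair is no separate check of their likeness. For EPAS1 the intensities were 805 at 50% confluence and 4013 in the standard culture, the highest of the 11 lines. THBS1 was most like the glycyl-tRNA synthetase gene GARS1 (r = 0.92, rho = 0.77), ENSA (r = 0.91) and UTF1 (r = 0.91). In the pair, GARS1 was higher at 50% confluence (0.65), unlike THBS1, and ENSA (-1.04) and UTF1 (-0.97) were lower.

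POSTN was most like PXDC1 (r = 0.91, rho = 0.81), KTN1, which encodes the kinesin receptor kinectin (r = 0.88), and YAP1, the gene of the co-activator YAP (r = 0.87, rho = 0.82, and r = 0.87 without the 2 farthest lines). In the pair, PXDC1 (-0.88) and YAP1 (-0.78) were lower at 50% confluence and KTN1 was higher (0.42). TNC was most like SDHD, a subunit gene of succinate dehydrogenase (r = 0.88, rho = 0.93), UBE3A and KHSRP. TGFBI was most like KCNA5 (r = 0.91), ZBTB7A (r = 0.90) and E2F4 (r = 0.85). In the pair these differed by 0.13, 0.29 and -0.34, unlike TGFBI at 2.67. KCNA5 (118 to 269) and ZBTB7A (100 to 301, at the floor in 2 lines) were dim. SPARC was most like the ribosomal protein genes RPL29 (r = 0.87, but 0.61 without the 2 farthest lines) and RPS21 (r = 0.84) and GM2A (r = 0.85).

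Among the genes most like CCN1 were CHMP2B (r = 0.92, rho = 0.96) and SPEN (r = 0.87). CHMP2B was dim, at 100 to 293, and at the floor in 2 lines. CCN2 was most like PYROXD1, ORAI2 and GOLGB1, each at the floor in 1 line, and r without the 2 farthest lines was 0.78, 0.68 and 0.69. These matches were chosen for their r among all tested probe sets over 11 lines, and are given without a test. The standard array of KB_7621 is 1 of the 11, so its pair is no separate check of any match.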

How the data were processed

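Expression was read from 1 table of 12 arrays. The deposited intensities are whole numbers on a linear scale with a floor of 100. The sources used here do not state the authors' summarising software, scaling or batches. The number of arrays limits the precision.

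Intensities were taken to log2 and quantile normalized over the 12 arrays. Of 12625 probe sets, 67 controls were left out, and probe sets with a mean over the 40th percentile were tested, 7535 in all (5482 genes). In the platform annotation 10961 probe sets had 1 symbol and 545 had several, and 1119 were absent from it. All 9 symbols of the group were found among the RefSeq genes of gorilla assembly NHGRI_mGorGor1-v2.1, which served for names alone. No sequence or coordinate is given. Sex and age were fitted with limma 3.58.1 in R 4.3.3 (lmFit, eBayes). Folds against a value at the floor are from deposited intensities. The steps were tested on simulated data. Each line was taken as 1 replicate, and 0 pairs of arrays held identical values.

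The members and the gene lists were chosen with earlier results of these data known. Named genes are all members, the 3 probe sets most correlated with each, and, per list, up to 3 genes per direction with the largest difference of 2-fold or more whose brighter value exceeded its array's median. The text gives part of the last, 1 probe set most like CCN1 is not reported here, and ITGB1, ITGB5, the third CTSK probe set and the label check RPS4Y1 were added after their values were seen. Alternatives were values as deposited, median scaling, a floor of 200, no filter, a filter at the 60th percentile, each line left out, adults only, Spearman correlation, and the 50% array standing in for the standard one.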

Additional observations from a re-analysis of the deposited data

Results flagged for a closer look

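CCN2 had an intensity of 1528 in KB_6278, far below the other 5 female lines, with a gap to the nearest that was 0.634 of the whole range of the group on the log2 scale. This was the 1 flag in 26 groups checked, where chance gives about 1 in 20. KB_6278 is also the line whose Y-linked signal goes against its label, and among the male lines CCN2 ran from 1883 to 4400.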

How the results depend on the processing

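No member was called for sex or age under any alternative run. Over all probe sets, the count called for sex was 0, and 2 with median scaling and 2 when KB_7621 was represented by its 50% culture (RPS4Y1 and a probe set with several symbols). With each line left out in turn it ran from 0 to 1, the 1 being RPS4Y1 without KB_6278. That for age stayed 0. In adults without KB_6278, a setting added after the data were seen, the age slopes of TGFBI and CCN5 turned to -0.27 and -0.73 (limma adjusted p = 1 for both).

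For confluence, 525 probe sets were 2-fold or more higher and 546 lower. As deposited these were 376 and 851, with median scaling 1299 and 231, with a floor of 200 253 and 283, and with a filter at the 60th percentile 386 and 362. With median scaling every difference of the pair was 0.495 above that of the values as deposited. TNC on 695_at, at the floor on both arrays, thus had 0.495 in place of 0. The median intensities behind this shift were 105 at 50% confluence and 148 in the standard culture, near the floor of 100. The cause of the other shifts between scalings was not tested. Of the remaining settings, 1 raised the floor and the filter at the 60th percentile tested fewer probe sets. Without a filter more probe sets were tested, and the counts were 532 and 566. Member probe sets 2-fold or more lower were 5, and 3 with median scaling. With the floor of 200, THBS1 on 866_at went to -0.57, since it lies near the floor. The SD of that probe set was 0.25 without KB_7500, where it was lowest, against 0.43, and the SDs of the other probe sets stayed within 1.5 times under every alternative run. Under the alternatives, 27 values of a correlation moved by 0.2 or more and 99 by less. No line could be left out of the confluence pair, which has 1 array on each side. No paired analysis was possible because the replicate numbers only name the lines in accession order and pair no samples.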
